A study of Mus musculus with 7 samples.

Results

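CXC chemokine ligands are small secreted proteins that steer leukocytes. This account covers the 10 of them chosen by gene name, Cxcl1, Cxcl2, Cxcl5, Cxcl9, Cxcl10, Cxcl11, Cxcl12, Cxcl13, Pf4 and Ppbp, among the 20343 genes of the analysed count table. All 10 were present. They were placed in 4 classes by their known roles: 3 interferon-induced ligands (Cxcl9, Cxcl10, Cxcl11), 3 neutrophil-attracting ligands (Cxcl1, Cxcl2, Cxcl5), 2 ligands stored in platelet granules (Pf4, Ppbp) and 2 homeostatic ligands (Cxcl12, Cxcl13). Sequencing of polyA RNA was done on apical heart muscle of 7 mice, and the question was how their transcripts differed between 4 untreated control hearts and 3 hearts of mice given human CD4+ T cells 6 weeks earlier. Every mouse, controls included, was of the strain NSG-DRB1*0101 (NSG-DR1), an immunodeficient line with a transgene for a human class II HLA molecule. NSG mice lack mature lymphocytes of their own and keep neutrophils, monocytes, macrophages and platelets. The labels give neither age nor a mock-transferred control, and the hearts are numbered here in the order of the sample list.

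As background, the ligands act through G-protein-coupled receptors on leukocytes. Cxcl9, Cxcl10 and Cxcl11 are made by macrophages, endothelium and other cells exposed to interferons and attract activated T cells through Cxcr3. Cxcl1, Cxcl2 and Cxcl5 are made after interleukin 1, TNF or interleukin 17 signalling and attract neutrophils through Cxcr2. Pf4 and Ppbp are made by megakaryocytes and carried in platelets. Cxcl12 is made constantly by stromal and endothelial cells and acts through Cxcr4 and the scavenger Ackr3, and Cxcl13 organises B cell follicles through Cxcr5.

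The classes differ in their coding sequence. The ligands that bind Cxcr2 carry the residues glutamate, leucine and arginine (the ELR motif) just before the paired cysteines that give the CXC family its name. The 18 bases below cover the 3 codons before the first cysteine and the 3 codons of the cysteine pair, 5′ to 3′ on the coding strand, read from GENCODE M21 transcripts of GRCm38. Capitals mark codons for ELR.
Cxcl1: GAGCTGCGCtgtcagtgc
Cxcl2: GAACTGCGCtgtcaatgc
Cxcl5: GAGCTGCGTtgtgtttgc
Ppbp: GAACTGCGCtgcagatgt
Pf4: gatcttagctgtgtgtgt
Cxcl9: aatgcacgatgctcctgc
Cxcl10: acggtccgctgcaactgc
Cxcl11: caggggcgctgtctttgc
Cxcl12: agctaccgatgcccctgc
Cxcl13: aacttaaaatgtaggtgt
ELR codons were present in the 3 neutrophil-attracting ligands and in Ppbp, and absent from the other 6. Pf4 and Ppbp, both platelet products, differ in this motif. The count table annotates Cxcl11 of this reference genome as a transcribed pseudogene.

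On the GRCm38.p6 map, 9 of the 10 genes lay on chromosome 5. Cxcl5 (90759298 to 90761625), Ppbp (90768518 to 90770063), Pf4 (90772435 to 90773383), Cxcl1 (90891245 to 90893121) and Cxcl2 (90903899 to 90905938) formed one run on the plus strand. Cxcl9 (92321331 to 92328079), Cxcl10 (92346638 to 92348889) and Cxcl11 (92359544 to 92363296) formed another on the minus strand. Cxcl13 (95956939 to 95961068, plus strand) stood apart, and Cxcl12 lay on chromosome 6 (117168535 to 117181368, plus strand). Counts were taken over the combined exons of each gene.

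The 250 bases upstream of the annotated start (RefSeq, GRCm38.p6) are shown for the 2 interferon-induced ligands with measurable RNA and the 2 neutrophil-attracting ligands listed in the promoter table, because these classes are switched on by different factors. Capitals mark matches, on either strand, to the core of the interferon-stimulated response element (GAAANNGAAA) or to the kappa B motif bound by NF-kB. The kappa B pattern was GGGRNYYYCC, where R is a purine, Y a pyrimidine and N any base, and looser variants were not searched. The gamma-activated site (TTCNNNGAA) was also searched.
Cxcl10, chr5:92348890-92349139, minus strand: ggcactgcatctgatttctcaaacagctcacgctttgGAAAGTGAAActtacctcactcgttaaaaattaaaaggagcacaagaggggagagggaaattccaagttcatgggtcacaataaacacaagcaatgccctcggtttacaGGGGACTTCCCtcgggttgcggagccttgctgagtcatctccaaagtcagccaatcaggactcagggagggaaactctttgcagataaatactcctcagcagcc
Cxcl9, chr5:92328080-92328329, minus strand: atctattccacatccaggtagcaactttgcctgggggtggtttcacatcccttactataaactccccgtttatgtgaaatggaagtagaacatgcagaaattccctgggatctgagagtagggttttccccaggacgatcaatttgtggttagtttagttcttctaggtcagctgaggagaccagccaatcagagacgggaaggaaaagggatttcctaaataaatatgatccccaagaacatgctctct
Cxcl1, chr5:90890995-90891244, plus strand: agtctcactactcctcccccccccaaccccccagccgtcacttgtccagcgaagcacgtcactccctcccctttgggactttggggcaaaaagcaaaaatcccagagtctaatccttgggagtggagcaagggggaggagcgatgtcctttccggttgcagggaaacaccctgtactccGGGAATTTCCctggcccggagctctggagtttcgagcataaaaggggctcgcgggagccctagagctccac
Cxcl2, chr5:90903649-90903898, plus strand: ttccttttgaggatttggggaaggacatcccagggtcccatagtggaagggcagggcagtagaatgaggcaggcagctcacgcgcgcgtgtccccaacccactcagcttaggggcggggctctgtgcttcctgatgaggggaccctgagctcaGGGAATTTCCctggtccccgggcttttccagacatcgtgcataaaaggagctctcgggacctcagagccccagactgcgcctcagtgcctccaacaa
Cxcl1 and Cxcl2 held the same kappa B letters, GGGAATTTCC, whose first base lay 71 bases upstream of the start in Cxcl1 and 97 bases upstream in Cxcl2. Cxcl10 held an interferon-stimulated element core with its first base 213 bases upstream and 2 overlapping kappa B matches between 104 and 94 bases upstream. These letters occurred in 2.98% (element core) and 5.001% (kappa B) of 32851 such windows, and the gamma-activated site in 7.02%. Cxcl9, Pf4, Ppbp, Cxcl12 and Cxcl13 held none of the 3 patterns in this window. The table had no window for Cxcl5 or Cxcl11. A match describes letters only and is not evidence that a factor binds.

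Column totals over the analysed part of the genome ran from 16402194 to 25190580 counts, and 3 counts corresponded to between 0.115 and 0.189 CPM (counts scaled to a common library size, with TMM factors). Between 9685 and 10497 genes had counts in a heart. Heart muscle identity was clear: the 6 analysed cardiomyocyte markers together took from 87069 to 112009 CPM, with overlapping groups. The 7 analysed mouse T cell markers summed to between 28.5 and 38.3 CPM over all hearts, and the B cell marker Pax5 had no counts in any heart. Cd28 alone gave from 21.9 to 31.4 CPM of the T cell sum. Cd4 and Cd247 reached at most 4.42 and 4.83 CPM, and Cd8a, Cd8b1, Cd2 and Lck at most 0.470 CPM in any heart. The 3 transferred hearts differed among themselves, and for that reason each is given by number below. Transferred heart 2 had the highest level of 9 of the 10 ligands, the exception being Cxcl9. It exceeded every control heart in 9 ligands, against 6 for transferred heart 1 and 5 for transferred heart 3. The same was not counted over all tested genes, so these numbers describe the ligands only. Some rest on few counts, such as Cxcl11 in transferred heart 2 (3 counts, against 2 in control heart 4). Cxcl2 in transferred heart 1 is another (4 counts, against 3 in control heart 4).

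Of the 10 ligands, 7 had enough counts for the test over all genes (edgeR quasi-likelihood with Benjamini-Hochberg adjustment over 7667 genes), namely Cxcl1, Cxcl9, Cxcl10, Cxcl12, Cxcl13, Pf4 and Ppbp. None of the 7 passed an adjusted p of 0.05, a threshold that 18 genes (0.235% of those tested) passed. At an unadjusted edgeR p under 0.05, Cxcl1, Cxcl10 and Pf4 were higher in transferred hearts, a direction and threshold met by 7.17% of tested genes. Cxcl13 met it too, but passed the filter on low counts only through the transferred hearts where it is high, so its test values, here and below, are a description. DESeq2 called 3 ligands higher at the same adjusted threshold, Cxcl1 (adjusted p = 0.000857), Pf4 (adjusted p = 0.0251) and Cxcl5, as it did 2.28% of the 8365 genes to which it gave an adjusted p; that of Cxcl13 was undefined. Cxcl5 did not pass the filter of the main test, and of its counts 9 were in control and 71 in transferred hearts, 60 of them in transferred heart 2, so its call is a description as well. Limma-voom called 0. Groups did not overlap for Pf4, higher in transferred hearts, a separation shown by 5.99% of tested genes, nor for Cxcl13. The log2 fold change had a median of 1.56 over the 7 ligands and of -0.002 over all tested genes, where the first includes Cxcl13 and is a description for the same reason. Each heart is a separate animal, and in bulk tissue fewer cells of a type and less RNA per cell cannot be told apart.

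**Figure D1:**
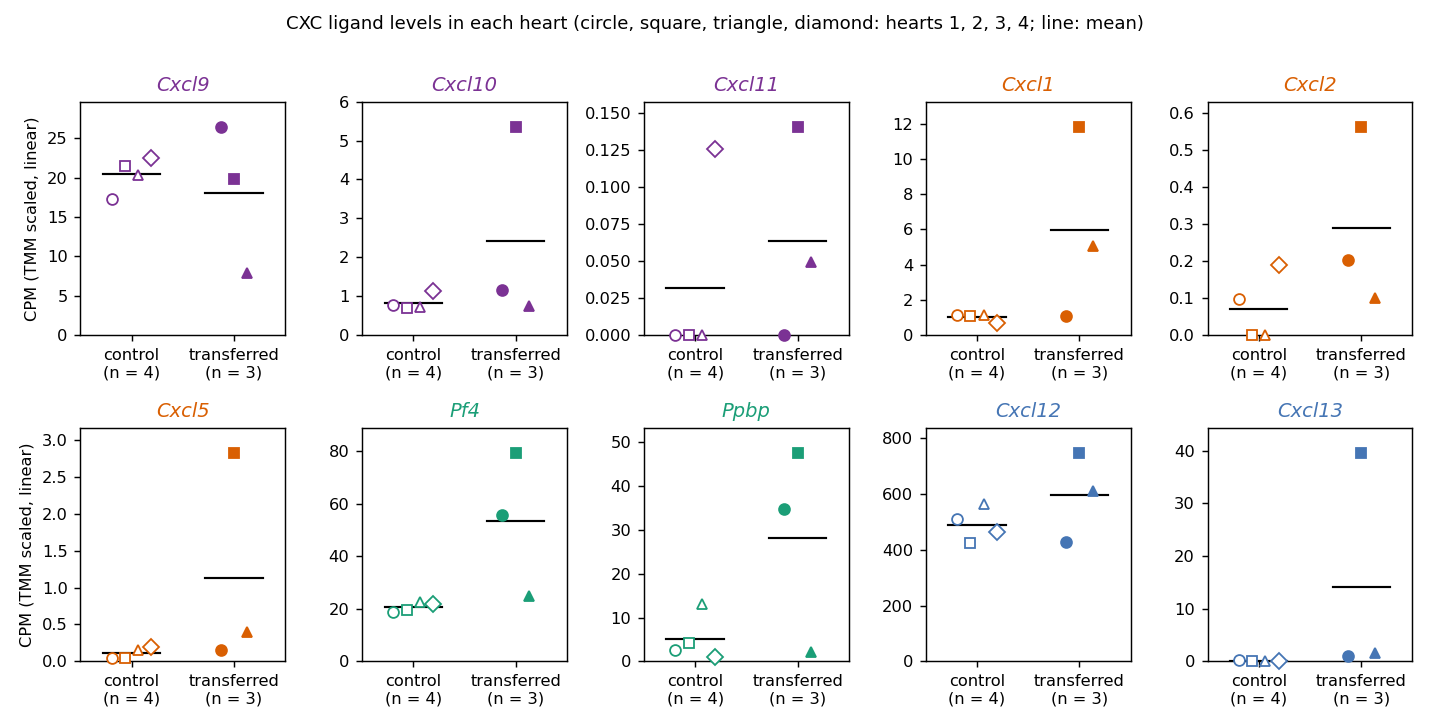
Level of each of the 10 CXC ligands in every heart, in CPM on a linear axis that starts at 0 and differs between panels. Open symbols are the 4 control hearts, filled symbols the 3 transferred hearts, and lines the group means; transferred heart 2 (filled square) is the highest point in every panel except Cxcl9.

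Compared per kilobase of exon, the order in control hearts was clear for Cxcl12 and Pf4 and only partly resolved below them. Cxcl12 stood first at 68.4 ± 8.46 CPM per kb (SD, n = 4), followed by Pf4 at 35.1 ± 3.28 and Cxcl9 at 7.02 ± 0.773. Ppbp came next at 4.79 ± 4.93 CPM per kb, and its spread covered the level of Cxcl9. Cxcl1 at 1.06 ± 0.223 and Cxcl10 at 0.756 ± 0.186 CPM per kb had overlapping ranges. Cxcl13, Cxcl2, Cxcl5 and Cxcl11 were below 0.1 CPM per kb in the mean of the controls, and their order was not resolved at this depth. In transferred hearts Pf4 averaged 90.7 ± 46.2 CPM per kb (SD, n = 3) and Cxcl12 83.0 ± 22.3, which did not differ beyond their spread. Ppbp followed at 25.9 ± 21.6 and Cxcl13 at 12.1 ± 19.0, and Cxcl1 (6.26 ± 5.71) and Cxcl9 (6.22 ± 3.24) had nearly the same mean.

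The summed level of the interferon-induced ligands was 21.3 ± 2.40 CPM in control hearts (SD, n = 4) and 20.6 ± 10.3 CPM in transferred hearts (SD, n = 3), with overlapping groups. Cxcl9 made up most of the sum in every heart, so the sum says little of Cxcl10 and Cxcl11. Cxcl9, a Cxcr3 ligand, was at 17.3, 21.4, 20.3 and 22.5 CPM in control hearts 1 to 4 and at 26.5, 19.8 and 7.90 CPM in transferred hearts 1 to 3. The transferred hearts thus held both the highest and the lowest of the 7 values. In the edgeR fit the log2 difference was -0.17 (standard error 0.34, adjusted p = 0.882), and without transferred heart 3 it was 0.18.

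Cxcl10, the other Cxcr3 ligand with measurable RNA, was at 0.778, 0.688, 0.729 and 1.14 CPM in control hearts. It was at 1.16, 5.36 and 0.741 CPM in transferred hearts. Only transferred heart 2 stood clearly above the controls, at 6.44 times their mean, with 114 counts (95% exact Poisson interval 4.42 to 6.44 CPM, counting error only). The log2 fold change of 1.56 (standard error 0.62, edgeR adjusted p = 0.345) became 0.21 without that heart. In transferred heart 2 Cxcl9 was 3.70 times Cxcl10 in CPM, while in the other 6 hearts the ratio lay between 10.7 and 31.1. Cxcl11 had 2 counts over all control hearts and 4 over all transferred hearts, so no difference was detectable at this depth.

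Interferon signalling genes upstream of these ligands were measured as well. Irf7, an interferon-induced transcription factor, was between 22.6 and 25.9 CPM in control hearts and at 931, 119 and 27.3 CPM in transferred hearts 1 to 3 (log2 fold change 3.89, standard error 1.11, edgeR adjusted p = 0.253). The heart with the most Irf7 RNA, transferred heart 1, was therefore not the heart with the most Cxcl10, and its Cxcl10 of 1.16 CPM was close to the 1.14 CPM of control heart 4. Of the 17 listed genes of interferon reception and signalling, 5 were tested and 0 passed the adjusted threshold; 2, Irf5 and Irf7, were higher at an unadjusted p under 0.05, as were 7.17% of all tested genes.

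The summed level of the neutrophil-attracting ligands, carried mainly by Cxcl1, was highest in transferred hearts 2 and 3. It was between 1.07 and 1.30 CPM in control hearts and 1.42, 15.2 and 5.53 CPM in transferred hearts 1 to 3, so that transferred heart 1 was just above the controls. Cxcl1 was at 1.118, 1.08, 1.15 and 0.694 CPM in control hearts 1 to 4 and at 1.06, 11.8 and 5.04 CPM in transferred hearts 1 to 3. Transferred heart 1 lay inside the control range, and the other 2 lay at 11.7 and 4.99 times the control mean. The edgeR estimate on the log2 scale was 2.55 (standard error 0.65, adjusted p = 0.165). Without transferred heart 1 it was 3.04 (edgeR adjusted p = 0.0148), and without transferred heart 2 it was 1.58 (edgeR adjusted p = 0.419).

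Cxcl5, which shares the receptor Cxcr2, had 1, 1, 4 and 3 counts in control hearts and 3, 60 and 8 counts in transferred hearts. In transferred heart 3 the 95% exact Poisson interval of Cxcl5 (0.171 to 0.779 CPM) overlapped that of control heart 4 (0.0390 to 0.553 CPM). Transferred heart 2 reached 2.82 CPM (95% exact Poisson interval 2.15 to 3.63), 26.0 times the control mean of 0.109 CPM, which rests on 9 counts. Cxcl2 had 2, 0, 0 and 3 counts in controls and 4, 12 and 2 counts in transferred hearts, so the interval of transferred heart 2 (0.292 to 0.986 CPM) overlapped that of control heart 4 (0.0390 to 0.553 CPM), and transferred heart 3 lay inside the control range. Cxcl3 and Cxcl15, further ligands of this kind in the table, had at most 1 count in any heart.

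The balance between these classes differed among hearts. Interferon-induced ligands summed to between 14.3 and 22.2 times the neutrophil-attracting ligands in control hearts and to 19.5 times in transferred heart 1. In transferred hearts 2 and 3 the ratio was 1.66 and 1.57. In heart 3 the interferon-induced sum was 8.69 CPM, the lowest of the 7. These ratios use CPM not divided by exon length (2905 bases for Cxcl9, 955 for Cxcl1), so they do not compare numbers of transcripts. Per kilobase of exon, Cxcl1 was above Cxcl9 in transferred heart 2 (12.4 against 6.83 CPM per kb) and transferred heart 3 (5.27 against 2.72). In transferred heart 1 and all control hearts it was below Cxcl9.

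**Figure D2:**
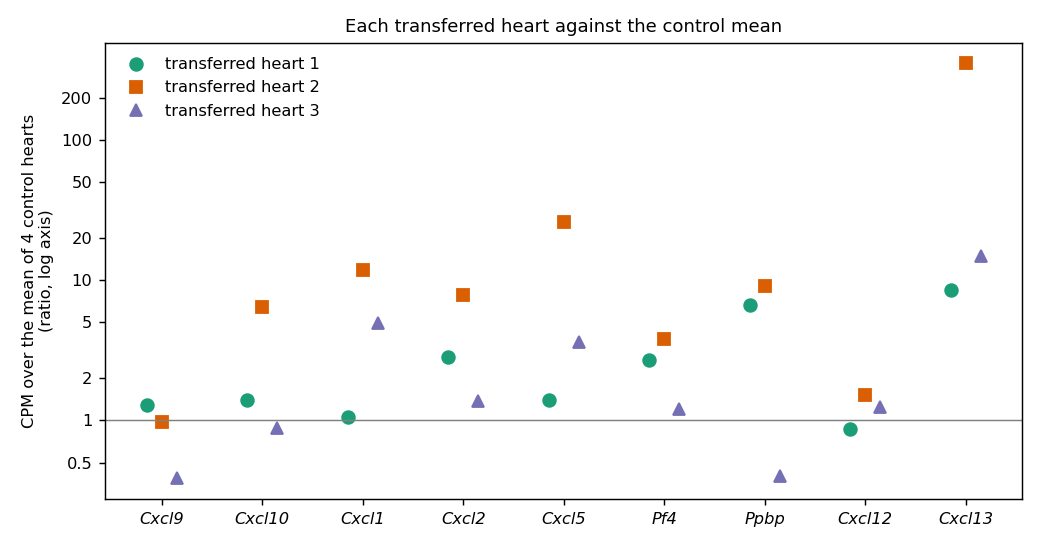
CPM of each ligand in each transferred heart divided by the mean of the 4 control hearts, on a log axis, for the 9 ligands with more than 3 control counts. Transferred heart 2 (squares) is highest in all but Cxcl9, transferred heart 1 (circles) is near 1 for Cxcl1, and transferred heart 3 (triangles) is below 1 for Cxcl9, Cxcl10 and Ppbp.

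All 6 analysed neutrophil markers were, like Cxcl1, highest in transferred heart 2. S100a8, a calcium-binding protein abundant in neutrophils, was between 1.38 and 2.04 CPM in control hearts and at 2.13, 72.3 and 9.63 CPM in transferred hearts 1 to 3. Cxcr2, the receptor for Cxcl1, Cxcl2 and Cxcl5, was between 0.192 and 0.757 CPM in control hearts and at 1.11, 16.4 and 1.83 CPM in transferred hearts (log2 fold change 3.77, standard error 1.01, edgeR adjusted p = 0.193); it passed the filter on low counts only with the transferred hearts, so this is a description. The 6 analysed of 13 neutrophil markers, Cxcr2 among them, summed to between 13.1 and 39.0 CPM in controls and to 22.1, 310 and 52.9 CPM in transferred hearts. Lcn2, a secreted neutrophil protein that other cells also make, was at 27.3 CPM in control heart 1, above the 16.2 CPM of transferred heart 3. The part of neutrophil RNA in the Cxcl1 difference was not tested.

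Genes that act above the neutrophil-attracting ligands were measured too. Il1b, the cytokine interleukin 1 beta, was between 0.778 and 2.19 CPM in control hearts and at 2.28, 11.1 and 3.31 CPM in transferred hearts (log2 fold change 1.86, standard error 0.56, edgeR adjusted p = 0.221). Its groups did not overlap, and transferred heart 2 was again the highest. Tnfrsf1b, a TNF receptor, was between 14.4 and 20.3 CPM in controls and at 33.8, 29.3 and 28.2 CPM in transferred hearts, without overlap (log2 fold change 0.83, edgeR adjusted p = 0.0546). Of 23 listed genes of interleukin 1, TNF, interleukin 17 and NF-kB signalling, 10 were tested and 0 passed the adjusted threshold; 6 were higher at an unadjusted p under 0.05 and 0 lower, against 7.17% and 5.27% of all tested genes. Il1rn, 1 of the 6, passed the filter only with the transferred hearts. Il17a had no counts in any heart.

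The platelet ligands were higher in transferred hearts 1 and 2. Pf4 was at 18.7, 19.4, 22.7 and 21.9 CPM in control hearts 1 to 4 and at 55.7, 79.3 and 25.04 CPM in transferred hearts 1 to 3. All 3 transferred values lay above all 4 control values, with transferred heart 3 at 1.21 times the control mean. By edgeR the log2 difference was 1.37 (standard error 0.33, adjusted p = 0.151). The exact two-sided permutation p of the log2 difference was 0.0286, unadjusted and the smallest that 35 assignments of hearts can give. Adjusted by Benjamini-Hochberg over the 10 ligands, it was 0.143. Apart from Pf4 and Cxcl13, the ligands had unadjusted permutation p from 0.0857 (Cxcl5) to 0.657 (Cxcl9). Without transferred heart 3 the log2 fold change was 1.71 (edgeR adjusted p = 0.00310), and without transferred heart 2 it was 0.97 (edgeR adjusted p = 0.345).

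Ppbp, the precursor of a neutrophil-attracting peptide, was at 2.53, 4.17, 12.97 and 1.07 CPM in control hearts and at 34.7, 47.5 and 2.07 CPM in transferred hearts. The control hearts alone spanned from 1.07 to 12.97 CPM, and transferred heart 3 lay within that span. For Ppbp edgeR gave 2.40 on the log2 scale (standard error 1.11, adjusted p = 0.463), with 3.40 without control heart 3 and 1.79 without transferred heart 2. Pf4 varied far less between control hearts, with an SD of 1.93 CPM around 20.7 CPM, than Ppbp, with an SD of 5.34 CPM around 5.19 CPM. The ratio of Ppbp to Pf4 in CPM was 0.135, 0.215, 0.572 and 0.0490 in control hearts and 0.623, 0.599 and 0.0828 in transferred hearts.

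Platelet genes that are not chemokines were also high in transferred hearts 1 and 2. Gp9, a subunit of the platelet receptor for von Willebrand factor, was at 0.681, 1.59, 2.42 and 0.252 CPM in control hearts and at 19.4, 19.5 and 0.593 CPM in transferred hearts. The 5 analysed of 12 platelet and megakaryocyte markers summed to between 1.96 and 10.2 CPM in controls and to 51.95, 41.1 and 1.53 CPM in transferred hearts. Red cell globin RNA (Hbb-bs and Hbb-bt) summed to between 3981 and 14672 CPM in controls and to 13102, 2735 and 3249 CPM in transferred hearts. Control heart 3 had the highest globin, platelet marker and Ppbp values among controls, whereas transferred heart 2 had the most Ppbp and the least globin of all 7. Macrophage markers, 8 of 12 analysed, summed to between 389 and 578 CPM in controls and to 945, 1013 and 699.9 CPM in transferred hearts, and all 3 were above the controls, as for Pf4. Of 7 macrophage markers tested, 2 passed the adjusted threshold, which 0.235% of all tested genes passed: the mannose receptor Mrc1 (log2 fold change 0.77) and the complement gene C1qb (log2 fold change 0.98), each with an edgeR adjusted p of 0.0384. All 7 were higher at an unadjusted p under 0.05, as were 7.17% of all tested genes. The part of platelets, retained blood or macrophages in the Pf4 and Ppbp values was not tested.

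**Figure D3:**
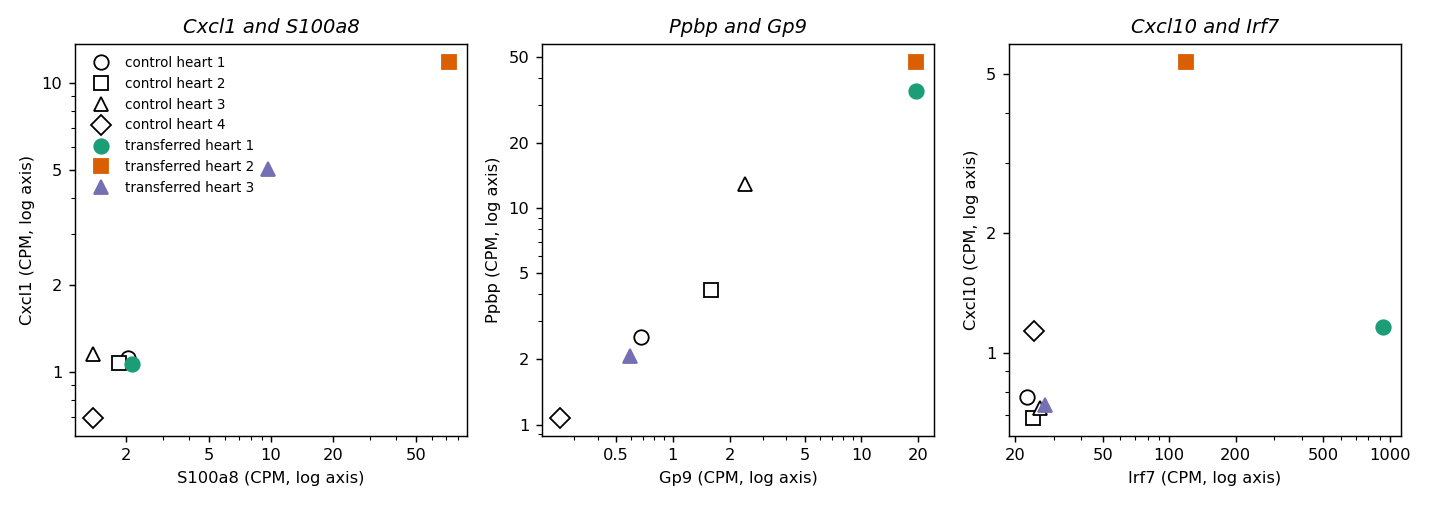
Level of 3 ligands against a gene of the neutrophil, platelet or interferon lists in the 7 hearts, in CPM on log axes, 1 symbol per heart. Cxcl1 and S100a8 are both highest in transferred heart 2, Ppbp and Gp9 are both high in transferred hearts 1 and 2, and the heart with the highest Irf7 (transferred heart 1, 931 CPM) has a Cxcl10 of 1.16 CPM.

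The 2 homeostatic ligands behaved differently from each other. Cxcl12, the most abundant ligand of the 10 in CPM, was at 509, 423, 564 and 464 CPM in control hearts 1 to 4 and at 428, 746 and 609 CPM in transferred hearts 1 to 3. Groups overlapped, with transferred heart 1 near the lower end of the controls. Its log2 fold change was 0.28 (standard error 0.17, edgeR adjusted p = 0.570), and 0.08 without transferred heart 2. It made up between 90.0% and 92.6% of the summed CPM of the 10 ligands in control hearts and 78.0%, 78.3% and 93.4% in transferred hearts.

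The receptors of Cxcl12 were lower on average in transferred hearts. Cxcr4, its signalling receptor, was at 25.1, 14.4, 13.8 and 24.0 CPM in control hearts and at 11.2, 13.5 and 7.16 CPM in transferred hearts (log2 fold change -0.86, standard error 0.28, edgeR adjusted p = 0.264). The groups did not overlap, but control heart 3 (13.77 CPM, 359 counts) and transferred heart 2 (13.49 CPM, 287 counts) nearly met. The share of all tested genes with such a separation, lower in transferred hearts, was not counted. Ackr3, which removes Cxcl12 from the surroundings of cells, was between 197 and 281 CPM in controls and at 192, 152 and 201 CPM in transferred hearts (log2 fold change -0.37, edgeR adjusted p = 0.324). Dpp4, a peptidase that inactivates Cxcl12, was 0.42 higher on the log2 scale (standard error 0.32, edgeR adjusted p = 0.644).

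Cxcl13 was nearly absent from control hearts, with 6, 1, 3 and 0 counts. It had 19, 841 and 34 counts in transferred hearts 1 to 3, or 0.962, 39.5 and 1.68 CPM. All 3 transferred hearts were above all 4 controls, and transferred heart 2 was far above the other 2. As a description, since no control heart reached the filter's 0.485 CPM, edgeR gave 6.85 on the log2 scale (standard error 1.81, adjusted p = 0.217). Over the 7 hearts the exact two-sided permutation p was 0.0286, unadjusted and the smallest possible. Adjusted by Benjamini-Hochberg over the 10 ligands, this permutation p was 0.143. Without transferred heart 2 the edgeR value, under the same limit, was 3.44 (standard error 0.73, adjusted p = 0.198).

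Of 17 listed genes of lymphoid tissue organisation, 4 were tested and 0 passed the adjusted threshold. At an unadjusted p under 0.05, Ccl21a and Ccl21b were higher, as were 7.17% of all tested genes. Ltbr, the receptor through which stromal cells are told to make Cxcl13, had a log2 fold change of 0.01 (standard error 0.07). Ccl21a, a T cell zone chemokine, was between 77.9 and 120 CPM in controls and at 141, 117 and 138 CPM in transferred hearts (log2 fold change 0.40, edgeR adjusted p = 0.312), and Ccl19 was at most 1.505 CPM in any heart. For Ccl21b edgeR gave 0.35 on the log2 scale (adjusted p = 0.349). Ccl21a and Ccl21b are near-identical copies, and their counts are uncertain for that reason. The 5 analysed of 7 B cell markers summed to at most 0.146 CPM in controls and 0.423 CPM in transferred hearts.

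Ackr1, the scavenger receptor of venules that binds Cxcl1, Cxcl5 and other inflammatory chemokines, had the order of Cxcl13 among the transferred hearts. It was between 0.252 and 0.430 CPM in control hearts and at 1.06, 5.55 and 1.78 CPM in transferred hearts, without overlap (log2 fold change 2.90, standard error 0.56, edgeR adjusted p = 0.0702). No control heart reached the filter's 0.485 CPM for Ackr1, so it entered the test only through the transferred hearts and these values are a description; some of its counts were fractional as deposited. Of the 8 listed receptors and scavengers, 4 were tested and 0 passed the adjusted threshold. At an unadjusted p under 0.05, 2 were lower (Cxcr4 and Ackr3), as were 5.27% of all tested genes, and 2 were higher (Cxcr2 and Ackr1), as were 7.17%. Both of the higher genes passed the filter only with the transferred hearts. Cxcr1 had counts in 1 heart only, transferred heart 2. Cxcr3 and Cxcr5 are not analysed here.

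Among all tested genes, those with the highest Pearson correlation of log2 CPM with each ligand over the 7 hearts were listed as a description. For Ppbp they were Gp9 (0.98), Tmem40 (0.98) and Clec1b (0.97), of which Gp9 and Clec1b were on the platelet list. For Cxcl1 they were Plekha7, Zfp428 and S100a8 (each 0.98). For Cxcl13 they included Pitpnb (0.99) and Ackr1 (0.98), and for Cxcl10 they were Atp8b4, Tent5b and Rap2b (each 0.99). For Pf4 they included Cd84 and Hpse (each 0.99), neither of them on the platelet list. The nearest gene to Cxcl9 was Mrps28 (0.98) and to Cxcl12 Hnrnpf (0.98). Such values are the highest among 7667 genes over 7 libraries in which 1 or 2 hearts stood apart.

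The animals' identifiers in the labels have 2 forms, starting with letters in control heart 1 and transferred heart 1 and with digits in the other 5 hearts. What the form stands for is not stated. Within the 5 hearts with digits, the difference in mean log2(CPM + 0.5) was 2.503 for Cxcl1, 1.01 for Cxcl10, 1.05 for Pf4, 1.26 for Ppbp, 4.08 for Cxcl13, 0.49 for Cxcl12 and -0.74 for Cxcl9. Among these 7 ligands edgeR passed none in those 5 hearts, with the lowest adjusted p, 0.0591, for Cxcl1. Between the 2 hearts with letters, the same difference, with no test possible, was -0.05 for Cxcl1, 0.38 for Cxcl10, 1.55 for Pf4, 3.54 for Ppbp, 0.89 for Cxcl13, -0.25 for Cxcl12 and 0.60 for Cxcl9. For Cxcl9 and Cxcl12 the values had opposite signs in the 2 forms of identifier. For Cxcl1 the 2 hearts with letters had 23 and 21 counts with overlapping Poisson intervals, so no direction was resolved there.

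**Figure D4:**
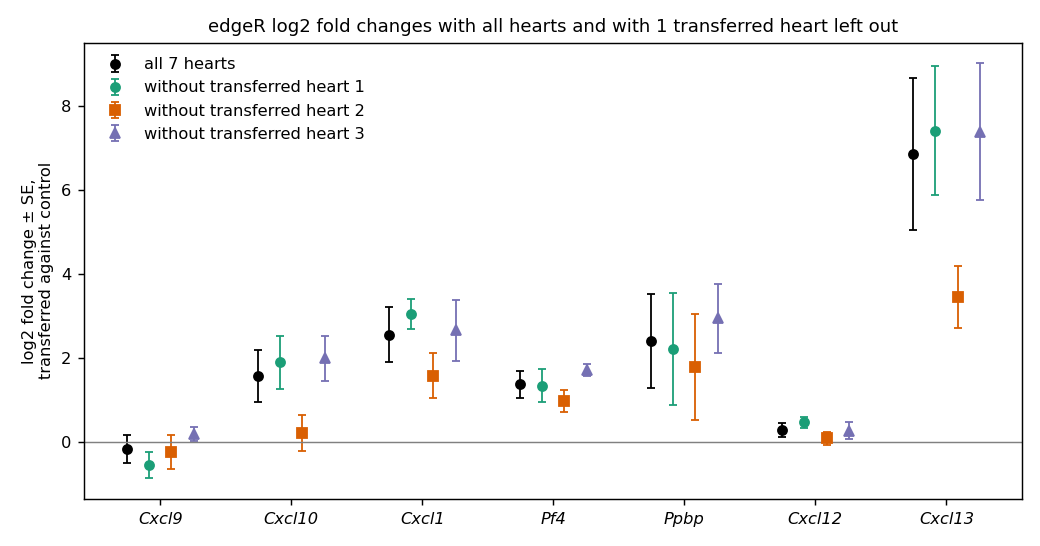
edgeR log2 fold changes (points) with standard errors (bars) of the 7 tested ligands, with all hearts and with each transferred heart left out in turn. Leaving out transferred heart 2 (orange squares) gave 0.21 for Cxcl10 and 3.44 for Cxcl13, against 1.56 and 6.85 with all hearts.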

How the data were processed

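For 7 mouse hearts the authors deposited estimated counts for each gene, in a table they named as raw, with no normalization seen in the column totals. Of these values 4.63% had a fractional part and were rounded to whole numbers; all values of the 10 ligands were whole. The submitters' processing notes name bcl2fastq 2.20.0.422, cutadapt 2.5, STAR 2.7.2b, featureCounts 1.6.4, DESeq2 1.22.2 and build GRCm38.p6. The table used here had 20343 complete rows, covering chromosomes 1 to 7 and part of chromosome 8; column totals are not library depths, and genes elsewhere are not analysed here.

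Low-count genes were removed with filterByExpr, libraries were scaled by TMM, and 7667 genes were tested with the edgeR 4.0.16 quasi-likelihood test (robust, R 4.3.3), with Benjamini-Hochberg adjustment over all tested genes. Alternatives used DESeq2 1.42.0, limma 3.58.1 (voom), other scalings and filters, the form of the animal identifier as a covariate, and left-out hearts. Standard errors came from the F statistic. Single ligands were also compared by exact permutation of log2(CPM + 0.5). Same-group libraries differed by more than sampling noise (chi-square per degree of freedom from 17.4 to 77.2). The procedure was tested on simulated counts. Named genes are the ligands, the listed pathway and marker genes and the 3 genes most correlated with each ligand; some of these are not reported here. Ligands and lists were chosen with earlier results of these data known.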

Additional observations from a re-analysis of the deposited data

Results flagged for a closer look

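Values of the ligands and of the 4 class sums were checked in the control group for a heart far from the other 3 (Dixon's test at the 95% level, which chance meets in about 1 of 20 groups). Of 14 results checked, 2 were marked, both in control heart 4, which had the fewest counts. For Cxcl1 its log2(CPM + 0.5) was 0.26, against 0.66 to 0.72 in the other control hearts, and it rested on 11 counts (95% exact Poisson interval 0.346 to 1.24 CPM). For Cxcl11 its log2(CPM + 0.5) was -0.68, against -1 in the other control hearts, where Cxcl11 had 0 counts, and it rested on 2 counts. With the other 3 hearts tied at 0 counts, any count would be marked, so the rate of 1 of 20 does not hold for Cxcl11. The transferred group of 3 hearts is too small for this check.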

How the results depend on the processing

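With all hearts, 18 genes passed the edgeR adjusted threshold. Scaling by column totals gave 35, testing each gene that had a count 81 and DESeq2 250, while limma-voom, the identifier covariate and the 5 hearts with digits gave 0 each. Leaving out 1 heart gave from 0 to 140 (0 without control heart 1, 2 or 4 or transferred heart 2, 1 without control heart 3, 140 without transferred heart 3). The number of ligands past the threshold, 0, became 3 with DESeq2 (Cxcl1, Pf4 and Cxcl5, the last below the main filter and with 60 of its 71 transferred counts in transferred heart 2) and ranged from 0 to 1 when 1 heart was left out: Cxcl1 without transferred heart 1, Pf4 without transferred heart 3. The log2 fold change of Cxcl9 ranged from -0.55 to 0.18 when 1 heart was left out, and reversed without transferred heart 3. The log2 fold changes of Cxcl1, Cxcl10, Cxcl12, Cxcl13, Pf4 and Ppbp kept their sign in all 16 alternatives. For these shifts the cause was not tested. No paired analysis was possible because the labels give the 2 groups no shared replicate numbers beyond 1. The log2 ratio of summed levels ranged from 1.55 to 3.16 for neutrophil-attracting and from 1.19 to 2.07 for platelet ligands over 10 alternatives, from 0.08 to 0.53 for homeostatic ligands (0.31 with all hearts) and from -0.39 to 0.32 for interferon-induced ligands (-0.05 with all hearts), the last positive without control heart 4 and without transferred heart 3. Depth limits Cxcl2, Cxcl5 and Cxcl11, and Cxcl13 in control hearts.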
